A study of Homo sapiens with 8 samples.

Results

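The 1297 open regions of chromosome 20 were described in H1650, an established human non-small cell lung cancer line, out of 46665 open regions found over the whole genome. The members were all peaks of 8 ATAC-seq peak lists that lay on chromosome 20 of the hg19 build, merged wherever they overlapped or touched. Of these, 406 lay on the short arm, 20p (chr20:270757-26190461), and 891 on the long arm, 20q (chr20:29428842-62959397). The arms were divided at 26.4 Mb, which falls inside a stretch of 3.24 Mb without any region, so no region was split. The chromosome was chosen by the local background recovered at its peaks, the highest of all chromosomes relative to the genome-wide level, so that contrast is given below as a description without a test. The contrast between its arms was not part of that choice, but for background it is read from the same values. That background was recovered from the fold of each peak, described below, so the fold contrast is not independent of the choice either.

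ATAC-seq inserts adapters into accessible DNA with a transposase, and a peak is a place where insertions pile up. The libraries came from untreated cells and from cells transfected with siRNA at 20 nmol/L. The siControl cells received a non-targeting pool. The siMena11a cells received a mix of siRNAs against exon 11a, which marks the epithelial isoform of the actin regulator hMENA, and the siMena cells a pool against ENAH, the gene of hMENA. All cells were of the same line, and no group carried another agent by the labels except the transfection reagent in the transfected cells. Each group had 2 libraries, and nothing in the labels says that these came from separate cultures, so p-values measure the spread between these libraries, which may be technical.

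A peak caller judges each peak against a local background, the mean number of sequence tags over a position in the DNA around it. Where a whole segment of a chromosome gives more tags, the background at its peaks rises together with their pileup, and the ratio of the summit to its surroundings need not change. Extra copies of a segment and wider openness around the peaks both add tags, and in peak lists they cannot be told apart. Gain of 20q is a frequent change in carcinomas, and the arm carries growth genes such as SRC, AURKA and ZNF217, while PCNA, the replication clamp, lies on 20p. Regions were not assigned to genes here, since no hg19 annotation was used.

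List length and genome-wide background differed between libraries and bear on every count below. The lists of replicate 1 held 34782 (untreated), 27304 (siControl), 35472 (siMena11a) and 14678 (siMena) peaks, and those of replicate 2 held 22424, 5231, 2832 and 1020. The genome-wide background ran from 0.538 to 1.09 tags per position in the untreated libraries and from 0.725 to 2.88 in the transfected ones. In each group it was higher in replicate 2, which listed fewer peaks. Backgrounds are therefore given as relative background, the local background at a peak divided by the genome-wide background of its library.

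Chromosome 20 had the highest median relative background of the 23 chromosomes ranked (1 to 22 and X) in each of the 8 libraries. In the untreated libraries the median was 2.82 and 2.75 (replicates 1 and 2). In the siControl libraries it was 3.14 and 2.38, in the siMena11a libraries 3.06 and 2.54, and in the siMena libraries 3.09 and 2.98. Over the peaks of the other 22 chromosomes together, the median was between 1.41 and 2.27. The highest single one of the 22 had 2.75 and 2.66 in the untreated and 2.91 and 2.18 in the siControl libraries. It had 2.93 and 2.18 in the siMena11a and 3.06 and 2.27 in the siMena libraries. This was chromosome 7 in untreated replicate 1, 19 in siMena11a and siMena replicate 2, and 16 otherwise. The lead of chromosome 20 was thus small in siMena replicate 1 (3.09 against 3.06). Peaks with no other peak within 10 kb gave the same first rank, with medians from 2.37 to 3.06 on chromosome 20. Chromosome 20 carried between 1.98% and 2.91% of the peaks of a list.

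**Figure D1:**
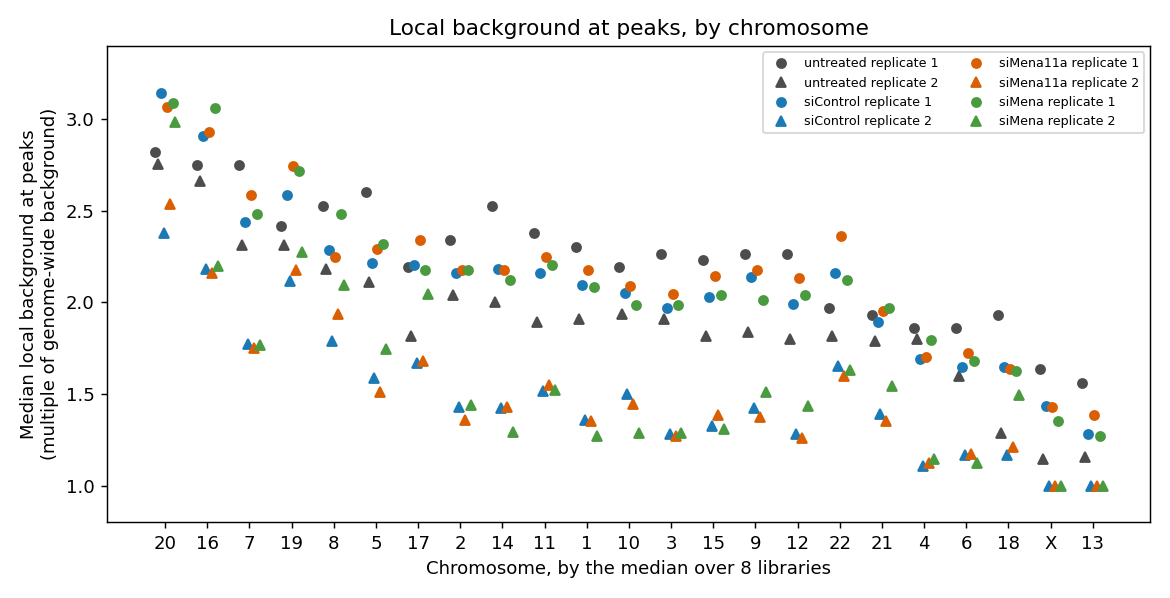
Median relative background at peaks (y axis, multiple of the genome-wide background) for each of 23 chromosomes (x axis, ordered by the median over libraries), with 1 point per library. Chromosome 20 stands at 2.38 to 3.14 and leads in every library, with chromosome 16 next to it.

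The high background of chromosome 20 lay on its long arm and on the end of 20p next to the arm boundary. In the untreated libraries, the median relative background was 2.23 and 1.67 on 20p and 3.21 and 3.10 on 20q. In the siControl libraries it was 2.07 and 1.35 on 20p against 3.57 and 2.76 on 20q. The siMena11a libraries had 2.09 and 1.97 against 3.54 and 2.84, and the siMena libraries 1.90 and 2.22 against 3.65 and 3.57. The lowest value of 20q, 2.76, thus lay above the highest value of 20p, 2.23. The log2 difference (20q minus 20p) was 0.77 ± 0.18 (SD, n = 8 libraries) and was positive in 8 of 8 libraries. A two-sided exact sign-flip permutation test over libraries gave p = 0.0078, the smallest that 8 libraries allow. Adjusted over the 3 arm results, the p of this test was 0.0078 too. The chromosome was chosen by these same background values, and all libraries are of 1 line. The test therefore shows only that the libraries share the direction. On 20q alone, the median was above that of all 22 other chromosomes in each library. Those were taken whole and not split into arms, so 20q was not ranked among arms. On 20p, between 1 and 18 of the 22 stood above it, and the siMena replicate 2 value rested on 8 peaks of 20p and 14 of 20q.

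The local background holds the tags of the peak itself and of its neighbours. With the tags over each summit taken out of the window, the log2 difference between the arms was 0.82. Among peaks with no other peak within 10 kb it was 0.94, and at regions listed in at least 5 libraries 0.77. The arm difference was as large in these settings as over all peaks.

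Summit pileups were higher on 20q as well. As a multiple of the genome-wide background, the median summit pileup was 26.0 and 15.6 on 20p and 33.4 and 21.1 on 20q in the untreated libraries. In the siControl libraries it was 19.2 and 8.39 against 24.6 and 11.9. The siMena11a libraries had 21.6 and 8.84 against 28.4 and 11.8, and the siMena libraries 19.3 and 9.04 against 26.2 and 12.5. The long arm was higher in each library. Few 20q peaks stood on the bare genome-wide background: these were 0.445% of its peaks in untreated replicate 1 and none in the other 7 libraries, against 3.95% to 13.2% on 20p.

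The fold of a peak, in which the authors divide the pileup at the summit (plus 1) by the local background (plus 1), went the other way. The untreated libraries had a median fold of 6.88 and 6.16 on 20p and 6.84 and 5.38 on 20q. In the siControl libraries it was 6.33 and 4.70 against 5.69 and 3.73. The siMena11a libraries had 6.67 and 4.43 against 6.21 and 3.71, and the siMena libraries 6.17 and 4.05 against 5.61 and 3.95. The long arm had the lower fold in 8 of 8 libraries, by little in untreated replicate 1 and siMena replicate 2. The list threshold bears on this contrast too, since a lower fold is enough to pass on a higher background. The mean log2 difference (20q minus 20p) was -0.15 ± 0.11 (SD, n = 8), with an adjusted p of 0.0078 by the exact sign-flip permutation test. The background that chose the chromosome was recovered from this fold, so here too the test shows only a shared direction. Without 2 Mb at each end of the chromosome's regions and 3 Mb on each side of the arm boundary, the difference was the same size (-0.15) but missed the threshold (adjusted p = 0.0703, exact permutation test). Against other chromosomes, taken whole, the median fold of 20q was lower than that of 17 to 22 of the 22.

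Peaks were also closer together on the long arm. Over the stretch that holds regions, untreated replicates 1 and 2 listed 12.7 and 7.60 peaks per Mb on 20p and 20.1 and 11.6 on 20q. The siControl libraries listed 9.38 and 2.04 per Mb against 16.1 and 2.18. The siMena11a libraries had 12.6 and 0.849 against 21.0 and 1.01, and the siMena libraries 4.94 and 0.309 against 8.59 and 0.418. The mean log2 difference was 0.55 ± 0.26 (SD, n = 8), positive in 8 of 8 libraries, with an adjusted p of 0.0078 by the exact sign-flip permutation test. It averaged 0.75 over the replicate 1 libraries and 0.35 over the replicate 2 libraries, and was smallest in siControl replicate 2 (0.09). The 2 sets did not overlap, and their difference was not tested. Within either set of 4 libraries the exact test cannot go below p = 0.125.

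**Figure D2:**
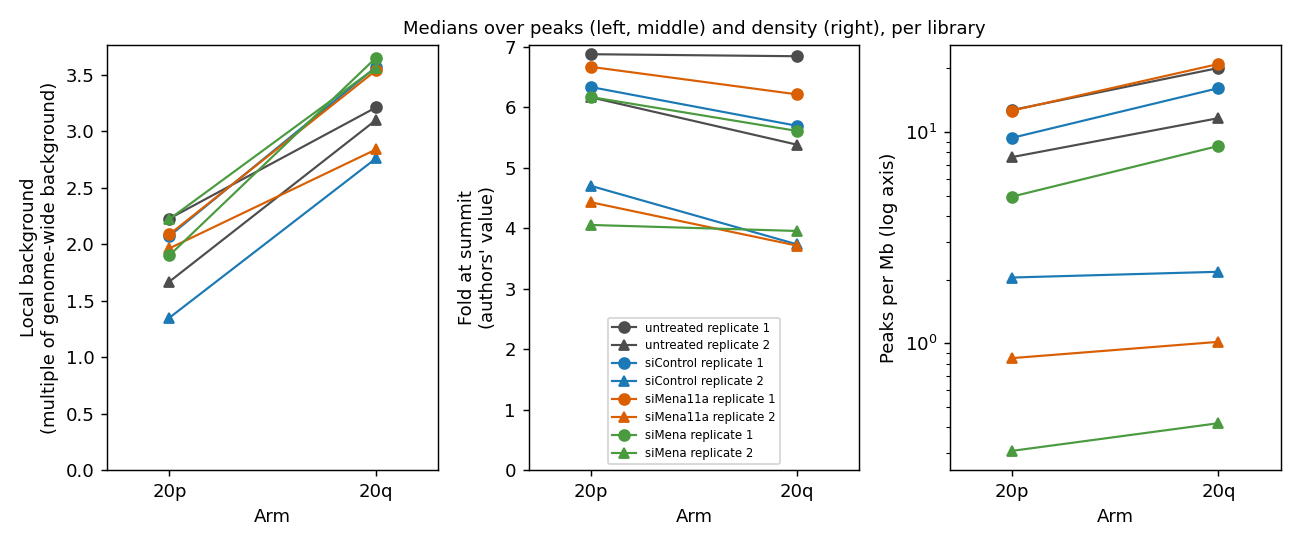
Median relative background (left), median fold (middle) and peaks per Mb on a log axis (right) on 20p and 20q, with 1 line per library. Lines rise from 20p to 20q on the left and on the right in all 8 libraries, and fall in the middle panel.

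In the union of all lists, the median gap between neighbouring regions was 30.6 kb on 20p and 17.0 kb on 20q. Bins of 1 Mb that held any region had a median of 15 regions on 20p (3 to 31) and 27 on 20q (3 to 57). The fullest bins were those from 48 to 49 Mb with 57 regions, from 52 to 53 Mb with 54 and from 30 to 31 Mb with 48. The widest stretches without a region, besides that between the arms, were chr20:40363396-42061240 (1.698 Mb) and chr20:53597241-54746237 (1.15 Mb) on 20q and chr20:16742184-17506356 (0.764 Mb) on 20p. The regions themselves were alike in width, with a median of 413 bp on 20p, 411 bp on 20q and 394 bp over the genome.

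Along the chromosome, the change in background began inside 20p rather than at the arm boundary, and 20p was split at 23 Mb to describe it. Over the replicate 1 libraries, the median of 1 Mb bins was 2.99 from 23 to 24 Mb and 4.46 from 25 to 26 Mb. It was 2.67 from 3 to 4 Mb, so the start of the change is not placed exactly. The position of 23 Mb was chosen after the values were seen, so the following values carry no test. The 339 regions of 20p below it (chr20:270757-22832717) had a median relative background of 2.04 and 1.52 in the untreated libraries and 1.90 and 1.18 in the siControl libraries. It was 1.86 and 1.23 in the siMena11a libraries and 1.72 and 1.09 in the siMena libraries, the last from 2 peaks. In each library, between 15 and 20 of the 22 other chromosomes stood above these values. The 67 regions from 23 Mb to the end of the arm (chr20:23029152-26190461) had 3.68 and 3.07 in the untreated, 3.46 and 2.62 in the siControl, 3.97 and 2.47 in the siMena11a, and 3.72 and 2.26 in the siMena libraries. None of the 22 other chromosomes stood above these, except 1 in siMena replicate 2, where the stretch held 6 peaks. The other chromosomes were taken whole, and the split of 20p was picked for its values. Both ranks follow in part from that choice.

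The stretch next to the arm boundary was also dense in peaks, near 20q in the replicate 1 libraries and above it in the replicate 2 libraries. It held 19.6 and 13.6 peaks per Mb in the untreated libraries, 16.8 and 5.38 in the siControl, 17.4 and 3.16 in the siMena11a, and 8.86 and 1.90 in the siMena libraries. On the rest of 20p, the values were 11.8 and 6.83 (untreated), 8.42 and 1.60 (siControl), 12.1 and 0.532 (siMena11a), and 4.43 and 0.0886 (siMena). Among peaks with no other peak within 10 kb, the background was 2.13 to 3.59 in the stretch and 1.09 to 1.79 on the rest of the arm. With the stretch left out, the log2 arm difference was 1.09 in background and 0.98 in density, given without a test since the stretch was picked for its values.

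Single regions overlapped across the change. Of the last regions below it, chr20:22832437-22832717 had a relative background of 1.198 in siControl replicate 1 and 1.27 in siMena11a replicate 1, the libraries that listed it. A little further from the split, chr20:22743797-22744543 had 1.65 to 3.57 over 5 libraries. The first region above it, chr20:23029152-23029794, had 6.84 and 3.10 in the untreated libraries, 5.28 in siControl replicate 1 and 5.29 in siMena11a replicate 1. Others above it were lower, such as chr20:23181580-23181913 with 1.67 to 2.31 and chr20:23321186-23321520 with 1.93 to 2.52 over 3 libraries each. The change in background is thus one of medians over many regions, and no single position of it was measured.

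**Figure D3:**
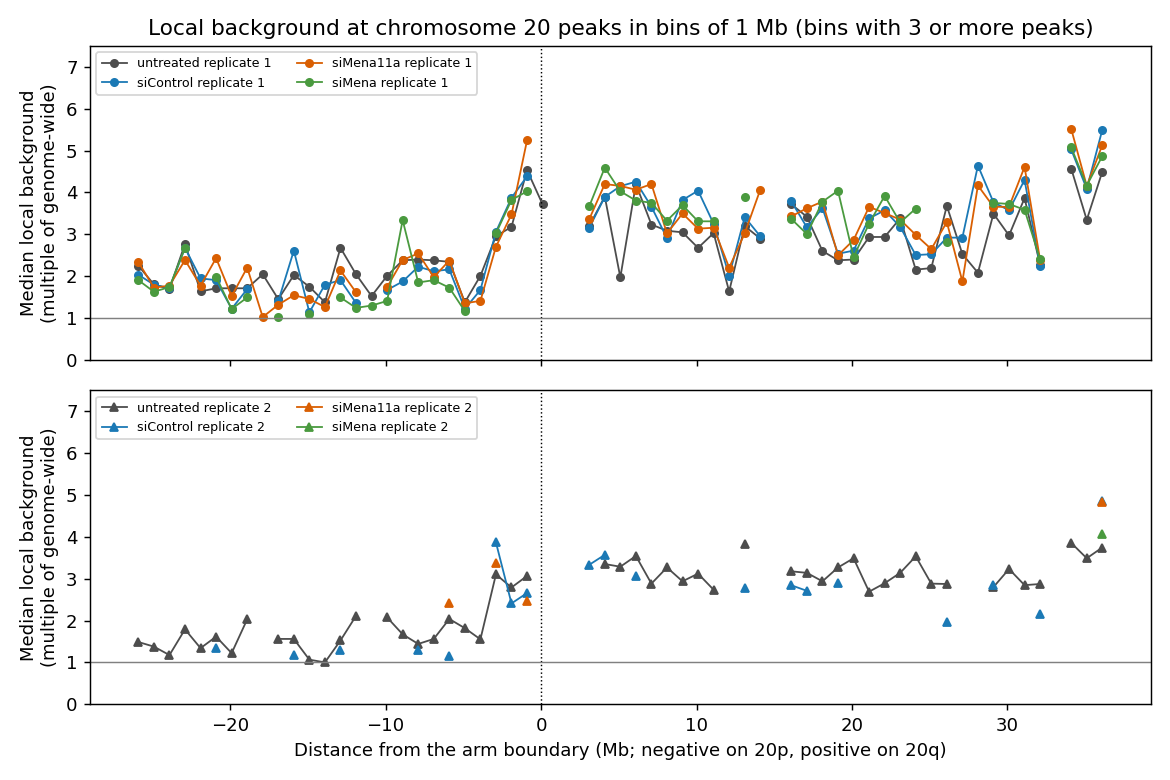
Median relative background of peaks in bins of 1 Mb (y axis) against the distance from the arm boundary in Mb (x axis, negative on 20p), for replicate 1 libraries (top) and replicate 2 libraries (bottom). Bins with fewer than 3 peaks are left blank, and the grey line marks the genome-wide background. The values step up within the last few Mb of 20p and stay above most of 20p along 20q.

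Bins differed within each arm. Bins with at least 5 peaks in each replicate 1 library were ranked by the median over those 4 libraries, which gave 10 bins on 20p and 24 on 20q. On 20p the bin from 25 to 26 Mb was highest, at 4.46 (4.03 to 5.24 over the libraries), and the bin from 2 to 3 Mb lowest, at 1.72 (1.69 to 1.77). On 20q the highest was the bin from 60 to 61 Mb, at 5.05 (4.57 to 5.52), followed by the last bin, from 62 to 63 Mb, at 5.00 (4.50 to 5.50). The lowest of 20q was the bin from 58 to 59 Mb, at 2.33 (2.23 to 2.40), only 2 Mb from the highest. The bin from 46 to 47 Mb was next to lowest, at 2.53 (2.40 to 2.86). The ranges of the highest and the lowest bin did not overlap on either arm, which follows in part from picking the extremes of this ranking.

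How often a region was listed again was set beside the other chromosomes, as a description. Of all chromosome 20 regions, 386 (29.8%) were listed in 1 library and 11 (0.848%) in all 8, against 31.2% and 1.16% over the genome. The 11 were 5 regions of 20p and 6 of 20q. Of the 312 regions of 20p in untreated replicate 1, 51.0% were listed again in replicate 2, and of the 658 of 20q 47.9%, against 51.4% on other chromosomes. For siControl the shares were 22.03% of 236 regions on 20p (exact Clopper-Pearson 95% interval 16.9% to 27.9%) and 12.2% of 518 on 20q (9.47% to 15.3%), against 17.2% elsewhere. For siMena11a they were 6.23% (3.85% to 9.46%) on 20p and 4.30% (2.92% to 6.09%) on 20q, against 6.90% elsewhere. For siMena they were 5.69% (2.32% to 11.4%) and 3.94% (1.98% to 6.94%), against 4.47% elsewhere. From replicate 1 to replicate 2, the share of 20q was below that of 20p and of the other chromosomes in all 4 groups. Its interval lay below the other chromosomes' share for siControl and siMena11a. From replicate 2 to replicate 1, 20q was again below 20p in each group. Against the other chromosomes it was then higher for untreated (82.9% against 80.2%) and siMena (78.6% of 14 regions against 71.7%). It was lower for siControl (88.7% against 91.3%) and siMena11a (88.2% against 89.5%). The intervals cover counting error over regions only.

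The regions listed in all 8 libraries with the highest lowest score were taken as the strongest of each arm. On 20p, chr20:25677019-25677830 had a fold of 11.6 and 11.0 in the untreated, 12.1 and 5.24 in the siControl, 11.8 and 5.03 in the siMena11a and 10.1 and 4.52 in the siMena libraries. It lies in the stretch next to the arm boundary, as does chr20:23338395-23339129, the third of the arm. The latter stood on a high background for 20p, with a relative background of 17.4 and 7.86 in the untreated libraries and 3.15 in siMena replicate 2. Its neighbour within 10 kb, chr20:23330462-23332134, was the widest region of the arm at 1673 bp and was listed in all 8 libraries too. The second strongest, chr20:13619167-13620100, lay far from the stretch and had a fold of 13.8 and 11.9 in the untreated libraries on a relative background of 4.87 and 2.26. Its fold was 11.3 and 6.44 in siControl, 12.8 and 5.39 in siMena11a and 8.89 and 4.64 in siMena. Replicate 2 was below replicate 1 at these regions in each transfected group.

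On 20q, chr20:52739964-52740700 was the strongest, with a fold of 13.0 and 12.0 in the untreated, 12.1 and 6.72 in the siControl, 13.8 and 4.86 in the siMena11a and 11.9 and 4.27 in the siMena libraries. Next came chr20:39656895-39657957, with a fold of 14.5 and 11.1 in the untreated, 11.4 and 3.94 in the siControl, 10.0 and 4.04 in the siMena11a and 5.90 and 4.22 in the siMena libraries. The third, chr20:62918351-62918806, lies in the last bin of the arm and ran from 7.09 in untreated replicate 1 to 3.497 in siMena replicate 2. The widest region of the chromosome, chr20:39317164-39318971 (1808 bp), stood on a relative background of 15.1 in untreated replicate 1 and 16.7 in siMena11a replicate 1, and its fold there was 6.03 and 6.24. The other widest regions were chr20:17549647-17551220 (1574 bp) and chr20:25175998-25177454 (1457 bp) on 20p. On 20q they were chr20:47131596-47132998 (1403 bp) and chr20:50807760-50809146 (1387 bp).

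Of the 6 regions of 20q listed in all 8 libraries, those between 46 and 48 Mb went against the others, and they were singled out after their values were seen. At chr20:46523452-46524763 the summit pileup, as a multiple of the genome-wide background, was 16.7 and 19.3 in the untreated libraries. It was 37.4 and 33.5 in siControl, 24.97 and 35.0 in siMena11a, and 31.7 and 29.2 in siMena. At chr20:47131596-47132998 it was 24.1 and 27.5 in the untreated libraries against 37.4 and 50.8 in siControl, 35.2 and 45.2 in siMena11a, and 42.7 and 42.4 in siMena. At both regions, the 6 transfected libraries were higher than the 2 untreated ones, with no overlap.

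The other regions listed in all 8 libraries went the opposite way. At chr20:52739964-52740700, for example, the pileup multiple was 171 and 76.2 in the untreated libraries, 93.0 and 20.7 in siControl, 128 and 13.8 in siMena11a and 97.9 and 10.1 in siMena. The ratio of the transfected to the untreated pileup multiple was 1.78 and 1.64 at the first and second of these regions, and between 0.389 and 0.673 at the other 9. Among the 500 such regions of chromosomes 1 to 22 and X the median ratio was 0.472, 21 exceeded 1, and 0 and 3 regions exceeded these ratios. A further region, chr20:48233921-48234365, was not listed in untreated replicate 1 and had a multiple of 21.1 in untreated replicate 2. In replicates 1 and 2 it had 31.0 and 34.0 in siControl, 18.2 and 29.9 in siMena11a, and 40.0 and 23.3 in siMena. Here siMena11a replicate 1 lay below untreated replicate 2, so transfected and untreated libraries overlapped. What sets the first and second region apart was not tested.

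**Figure D4:**
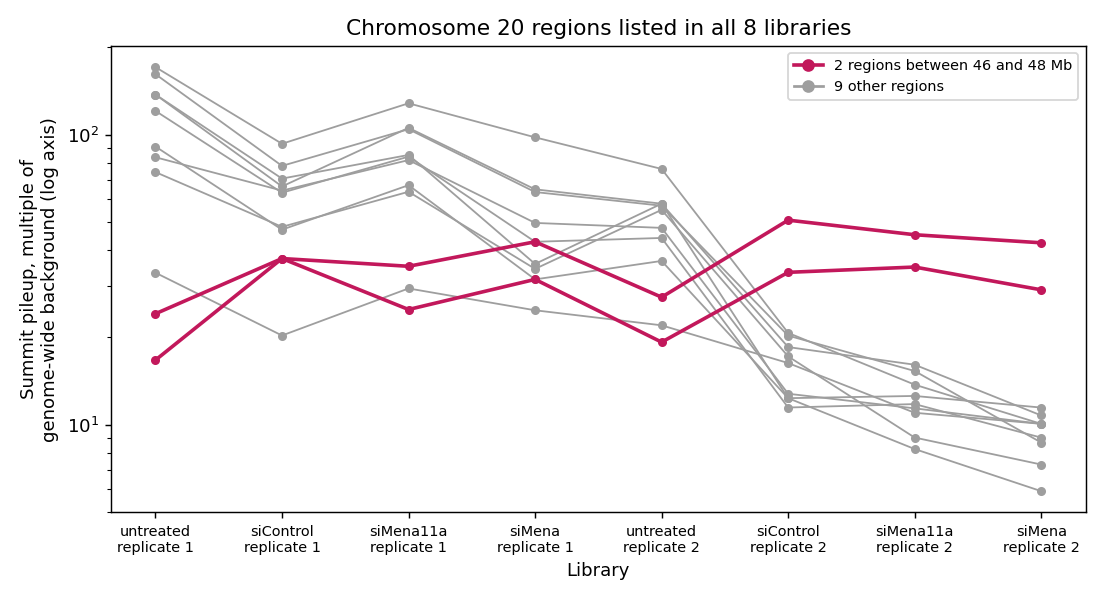
Summit pileup as a multiple of the genome-wide background (y axis, log) in each library (x axis, replicate 1 libraries first) at the 11 chromosome 20 regions listed in all 8 libraries. The 2 regions between 46 and 48 Mb (thick lines) keep values of 29.2 to 50.8 in the transfected replicate 2 libraries, where the other 9 lie between 5.91 and 20.7.

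The design asks whether silencing hMENA11a or all hMENA changes accessibility against the control siRNA. A region was called gained where both libraries of the first group listed it and neither of the second did, and lost in the opposite case. For siMena11a against siControl, no chromosome 20 region was gained (0.0279% of all regions in the genome were) and 1 was lost (0.0557% in the genome). The lost region, chr20:42187213-42187830, had a fold of 5.43 and 2.78 in the siControl libraries, and untreated replicate 1 (7.26) and siMena replicate 1 (4.49) listed it too. Between the replicate 1 libraries alone, 330 chromosome 20 regions were in siMena11a only (25.4%, against 24.2% in the genome) and 66 in siControl only (5.09%, against 6.25%), and 688 were in both. Between the replicate 2 libraries, 13 were in siMena11a only (1.00%, against 1.03%) and 81 in siControl only (6.25%, against 5.97%). The direction thus differed with the replicate, and the chromosome's shares lay near the genome's in both.

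Leaving out 1 library moved these counts, on the chromosome as over the genome. Without siMena11a replicate 2, 328 regions were gained (24% of all regions in the genome were) and 2 lost (0.15% in the genome). Without siMena11a replicate 1, 3 were gained (0.294%) and 75 lost (5.35%). Without siControl replicate 1 there were 10 gained (0.746%) and 6 lost (0.521%), and without siControl replicate 2 there were 1 gained (0.0964%) and 65 lost (6.14%).

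For siMena against siControl, no region was gained (0.00214% in the genome) and 10 were lost (1.03% in the genome), 6 on 20p and 4 on 20q. The 10 are 0.771% of the chromosome 20 regions, a share near that of the genome. Both untreated lists and that of siMena11a replicate 1 held all 10, and the list of siMena11a replicate 2 held none. These lists differ in length, and the same overlap was not counted for the lost regions of the whole genome. The strongest of the 10 were chr20:10982372-10982825 (fold 9.62 and 6.43 in the siControl libraries), chr20:13765409-13766094 (10.1 and 5.36) and chr20:32902172-32902736 (5.04 and 3.96). With all 4 lists shortened to the 1020 strongest peaks, the length of the siMena replicate 2 list, 0 regions were lost. That count was not set against the genome. Without siControl replicate 2 there were 2 gained (0.0621% in the genome) and 371 lost regions (28.1%). Without siMena replicate 1 there were 0 gained (0.255%) and 98 lost (8.38%), and without siControl replicate 1 there were 1 gained (0.0514%) and 15 lost (1.69%). Without siMena replicate 2 there were 19 gained (1.73%) and 12 lost (1.15%).

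Transfection with the control pool was set against no transfection. For siControl against untreated, 2 regions were gained (0.12% in the genome) and 45 were lost (3.65% in the genome). The 45, which are 21 regions of 20p and 24 of 20q, are 3.47% of the chromosome 20 regions and again near the genome's share. Of the 45, 37 were listed in siMena11a replicate 1, 2 in siMena replicate 1 and 0 in either siMena11a or siMena replicate 2. These lists held 35472, 14678, 2832 and 1020 peaks in the order named. The same overlap was not counted for the lost regions of the whole genome. The strongest of the 45, chr20:7821655-7822408, had a fold of 7.76 and 7.53 in the untreated libraries and 8.05 in siMena11a replicate 1. It was followed by chr20:9149475-9149684 (8.14 and 8.61 in the untreated libraries) and chr20:2821192-2821540 (9.38 and 6.69). With lists of 5231 peaks each, 6 regions were lost, a count that was not set against the genome. Without siControl replicate 1 there were 9 gained (0.769% in the genome) and 367 lost regions (27.7%). Without untreated replicate 1 there were 6 gained (0.369%) and 121 lost (11.3%), and without untreated replicate 2 there were 4 gained (0.283%) and 289 lost (22.5%). Without siControl replicate 2 there were 57 gained (5.55%) and 45 lost (3.78%).

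The 2 gained regions both lie on 20q. The region chr20:62719900-62720264 had a fold of 4.69 and 3.25 in the siControl libraries and was listed in 3 of the 4 libraries of the other transfected groups. The other, chr20:29652879-29653778, is near the arm boundary, with a fold of 4.29 and 4.19 in siControl, and was listed in siMena11a replicate 2 (3.54) and both siMena libraries (4.37 and 3.69). Both stood on a relative background of 3.17 to 5.13 in siControl.

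For siMena11a against siMena, 1 region was gained (0.24% in the genome) and 1 lost (0.00643% in the genome). The gained one, chr20:39646186-39646714, had a fold of 10.1 and 3.03 in the siMena11a libraries and was listed in both untreated libraries and siControl replicate 1. The lost one, chr20:59904292-59904554, had a fold of 5.16 and 4.25 in the siMena libraries and 3.80 in siControl replicate 2. Without siMena11a replicate 2 there were 627 gained (45.3% in the genome) and 2 lost regions (0.0814%). Without siMena replicate 1 there were 32 gained (3.86%) and 2 lost (0.251%), and without siMena replicate 2 there were 3 gained (0.339%) and 12 lost (0.979%). Without siMena11a replicate 1 there were 5 gained (0.538%) and 1 lost (0.12%). The comparisons share libraries, the siControl libraries above all, so their counts are not independent of each other.

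The background over chromosome 20 as a whole was compared in the same 4 pairs of groups. The log2 median relative background was 1.48 ± 0.03 (SD, n = 2, as for each group) in untreated cells, 1.45 ± 0.28 with siControl, 1.48 ± 0.19 with siMena11a and 1.60 ± 0.04 with siMena. The differences were 0.03 for siMena11a and 0.15 for siMena against siControl, -0.03 for siControl against untreated and -0.12 for siMena11a against siMena. The two-sided exact permutation test gave p between 0.667 and 1, where 2 libraries against 2 allow no p below 0.3333. With lists of equal length the differences were 0.12, 0.03, -0.38 and 0.16 in that order, and at regions listed in all 4 libraries 0.11, -0.0446, -0.32 and 0.17. Both siMena libraries (1.63 and 1.58) lay above both untreated ones (1.498 and 1.46), a pair of groups that was not compared. So did replicate 1 of siControl (1.65) and of siMena11a (1.62), while their replicate 2 libraries lay below (1.25 and 1.34). The siMena replicate 2 value rests on 22 peaks. The share of peaks on chromosome 20 was 2.75% ± 0.188 in untreated cells, 2.64% ± 0.327 with siControl, 2.44% ± 0.657 with siMena11a and 2.496% ± 0.479 with siMena. The 4 differences in share were -0.198, -0.145, -0.111 and -0.0536 percentage points in the same order, each smaller than the larger SD of its groups. The share is of the whole list, which also holds peaks outside chromosomes 1 to 22 and X. Chromosomes 1 to 22 and X without 20 held 85% of the siMena replicate 2 list and 93.7% to 96.8% of the others. The share of siMena replicate 2 is lowered by this, and the differences were not computed without those peaks. At this number of libraries, a difference between groups could not pass the test.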

How the data were processed

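Peak lists of 8 ATAC-seq libraries were used, 1 list per library. The submitters' processing notes name FastQC 0.11.5, Bowtie2 2.3.4.2, SAMtools 1.7, MACS2 2.2.5 and hg19; trimming, duplicate removal and the transposase shift are not given in the sources used here. The score, deposited by the authors, is 10 times the −log10 q, rounded down. The fold, deposited by the authors, is a ratio: the pileup at the summit plus 1, over the local background plus 1. Columns of −log10 p and −log10 q were deposited by the authors too, and all lists end at a q of 0.01. The files give no read totals.

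From fold and −log10 p, the whole-tag pileup and the local background were recovered with the caller's Poisson formula, to a tolerance of 0.001 on the −log10 scale in 100% of the rows. Of these, 47 rows of siMena replicate 1 had 2 solutions, and the closer was taken. The lowest local background of a list was taken as its genome-wide background, and higher ones fell on steps of 0.02, as 1 tag of 200 bp in a 10 kb window gives. On 2000 simulated rows, 100% of pileups were recovered, and the arm test and region calls were tested on simulated data. Several summits of 1 interval counted as 1 peak. Density is peaks per Mb between the first and last region of an arm.

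Arms were compared by a two-sided exact sign-flip permutation test over the 8 libraries with Benjamini-Hochberg adjustment over 3 results, groups by exact permutation of 2 against 2. Named regions were the 3 strongest regions listed in all 8 libraries and the 3 widest of each arm, all gained or lost regions where 5 or fewer and otherwise the strongest 3, and the highest and lowest bins. Strength is the lowest score percentile over the lists. The members and lists were chosen with earlier results of these data known. The 55 genes listed for the chromosome were not placed, since the RefSeq table held here is of another build, and no sequence is shown for the same reason. Alternatives were a −log10 q of at least 5, isolated peaks, single summits, trimmed arms, mean values, lists of equal length, 50% cover, the replicate number as a block and leaving out each library. Values were computed in Python 3.11.15 with SciPy 1.17.1, pandas 2.3.3 and numpy 2.4.6, and figures drawn with matplotlib 3.10.9.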

Additional observations from a re-analysis of the deposited data

How the results depend on the processing

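The 3 arm differences kept their direction in all settings run, and with each library left out they ran from 0.73 to 0.80 (background), -0.17 to -0.13 (fold) and 0.51 to 0.62 (density) with an adjusted p of 0.0156 in the exact permutation test. Of 24 other values under alternatives with a test, 17 passed the threshold. The exceptions were fold without the chromosome ends and arm boundary (-0.15) and the libraries of 1 replicate number, where p cannot go below 0.125: 0.75, -0.10 and 0.75 within replicate 1 and 0.78, -0.21 and 0.35 within replicate 2 for background, fold and density. Without its stretch from 23 Mb, chosen for its values and so not tested, 20p differed by 1.09 in background, -0.20 in fold and 0.98 in density. Settings chosen after seeing the data were 20p without its stretch from 23 Mb, windows without the summit's tags, regions listed in at least 5 libraries, and regions listed in all 4 libraries compared.

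No difference between groups can pass the test, and the direction of several turned. With lists of equal length, the share of peaks differed by 0.494 (siMena11a against siControl), 0.637 (siMena against siControl) and 0.441 (siMena11a against siMena) percentage points, and the background of siMena11a against siMena by 0.16. At regions listed in all 4 libraries, the background differed by -0.0446 for siMena against siControl and 0.17 for siMena11a against siMena. With 1 library left out, the background differences ran from -0.17 to 0.23 (siMena11a against siControl), -0.0508 to 0.35 (siMena against siControl), -0.23 to 0.17 (siControl against untreated) and -0.26 to 0.0142 (siMena11a against siMena). The shares ran from -0.663 to 0.266, -0.483 to 0.194, -0.342 to 0.121 and -0.518 to 0.411 percentage points in that order. For siControl against untreated the background kept its sign but went from -0.03 to -0.38 with lists of equal length and -0.32 at regions listed in all 4 libraries. With the replicate number as a block the differences were the same by construction (0.03, 0.15, -0.03 and -0.12 for background) and the exact permutation p was 0.5 or 1, so no call changed. The labels do not say that a number marks a shared culture or day. Same-numbered libraries deviated together along the chromosome (r from 0.34 to 0.91 over bins), which with 2 libraries per group is 1 value per comparison and does not show pairing.

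Counts of gained and lost regions moved with the length of the lists compared, in both directions. Lists of equal length gave 5 gained and 4 lost for siMena11a against siControl, 1 and 0 for siMena against siControl, 6 lost for siControl against untreated and 0 gained for siMena11a against siMena. At a −log10 q of at least 5 there were 0 lost for siMena11a against siControl, 4 gained for siControl against untreated and 0 gained for siMena11a against siMena. Peaks that cover 50% of a region gave 0 lost for siMena11a against siControl, 6 lost for siMena against siControl and 2 gained for siMena11a against siMena. The counts under equal length, the stricter q and 50% cover were not set against the genome's share, so they show nothing particular to chromosome 20. With 1 library left out, gained regions ran from 1 to 328, 0 to 19, 4 to 57 and 3 to 627, and lost regions from 2 to 75, 12 to 371, 45 to 367 and 1 to 12, in the order of comparisons above. The lists hold no value where no peak was called, so an unlisted region may be open below the threshold, most of all in siMena replicate 2 with 22 peaks on the chromosome.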
